A study of Macaca mulatta with 60 samples.

Results

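Myh6 encodes the alpha heavy chain of cardiac myosin and was read here as a single row, transcript ENSMMUT00000020702, 1 of 26149 transcripts in the expression table. The row was taken here by its identity, but the study had singled out Myh6 from its change on these same samples, so its array calls in LV are not independent evidence. The study also measured Myh6 by quantitative PCR in LG fetuses and reported a decrease in LV after BPA that it called marginally significant. The row was measured on all 60 arrays, 12 for each of 5 tissues: the ventricles of the fetal heart (LV on the left, RV on the right), its atria (LA on the left, RA on the right), and the biceps femoris (BFM), a skeletal muscle of the leg. The tissues came from 12 female rhesus monkey (Macaca mulatta) fetuses, which carry the same number in every tissue. Fetuses 1 to 3 were the early gestation (EG) controls, 4 to 6 the EG fetuses whose mothers received bisphenol A (BPA), 7 to 9 the late gestation (LG) controls and 10 to 12 the LG BPA exposed fetuses. BPA, a building block of polycarbonate plastics and epoxy resins, was fed in fruit once a day at 400 µg/kg body weight, over gestation days 50 to 100 (EG) or from day 100 until birth at term (LG). The control mothers received the ethanol vehicle alone over the same days. The EG fetuses were taken by caesarian section and the LG fetuses at necropsy after vaginal delivery, so that age, mode of delivery and window of exposure cannot be told apart in any comparison of LG with EG. Myh6 in fetal heart muscle was compared between the windows and between BPA exposed and control fetuses to find out how its level changed over gestation and under exposure.

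The alpha heavy chain is the motor protein of the thick filament in atrial muscle, and it splits ATP and moves actin faster than the beta heavy chain encoded by Myh7. In large mammals the atria contain mainly alpha myosin, whereas the ventricles contain mainly beta myosin, with a changing share of alpha around birth. Thyroid hormone is the best known activator of Myh6, and a lower ratio of alpha to beta myosin is a classic mark of the stressed or failing ventricle. In the RefSeq annotation of the rhesus monkey, MYH7 follows MYH6 as the next protein coding gene, and CMTM5 lies on the other side. Heavy chain genes are alike in sequence, the probes behind the row were not analysed here, and how far they separate Myh6 from the other heavy chains is therefore not known from these values.

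All levels are log2 values, on which a difference of 1 is a 2 fold change. The tissues were normalised separately, so a level was compared only with levels of the same tissue. Between tissues only the percentile rank of Myh6 on its own array is given, the share of transcripts at or below it. The highest value of every array was 15.85 or more, and the scanner had been set so that some probes saturated, so differences among the highest Myh6 levels may be understated. As a check of the fetus numbers, 50 transcripts that marked each fetus in the other tissues were scored on every array. Of 60 arrays, 59 scored highest for their own fetus, and in all 60 combinations of fetus and tissue the fetus' own array had the highest score for its markers. The exception was the RV array of fetus 12, which scored 0.96 for fetus 10 against 0.93 for fetus 12. No other RV array scored above 0.39 for fetus 12. Myh6 was low on that RV array, and the Myh6 differences in RV that rest on it are given with and without it. The table available here pairs no transcript with a gene symbol, so atrial, ventricular and skeletal muscle could not be checked against marker lists. Only transcripts named by the study could be read beside Myh6.

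In the atria, the Myh6 signal was among the highest of the array at both ages and in every fetus. Signals of different probes do not measure relative abundance, so a percentile here is a place among signals. In LA, levels in EG controls were 14.34, 14.46 and 14.43 and in EG BPA exposed fetuses 14.40, 14.54 and 14.60. LA of LG controls held 14.51, 14.64 and 14.48 and LA of LG BPA exposed fetuses 14.55, 14.76 and 14.64. In RA, levels were 14.63, 14.36 and 14.30 in EG controls, 14.72, 14.40 and 14.57 in EG BPA exposed fetuses, 14.53, 14.85 and 14.53 in LG controls and 14.55, 14.96 and 14.47 in LG BPA exposed fetuses. The highest and lowest of the 12 atrial values differed by 0.41 in LA and by 0.66 in RA, and on every atrial array between 18 and 52 of the 26149 transcripts lay above Myh6. This narrow band caused Myh6 to fail the interquartile range filter of 0.5 in LA and RA, and the atrial tests come from a fit on all transcripts without that filter. The LG minus EG difference in controls was 0.13 (SE 0.14) in LA and 0.21 (SE 0.19) in RA, and in BPA exposed fetuses it was 0.13 (SE 0.14) and 0.09 (SE 0.19). In LA the control groups did not overlap, as was the case for 14.8% of all transcripts in that comparison. BPA minus control was 0.10 (SE 0.14) in EG and 0.10 (SE 0.14) in LG for LA, with 95% confidence intervals of −0.21 to 0.41 in either window. In RA it was 0.14 (SE 0.19, 95% interval −0.28 to 0.56) in EG and 0.02 (SE 0.19, 95% interval −0.40 to 0.44) in LG. None of these comparisons passed the criteria of the study, a log2 fold change (LFC) of at least 1 in size with an unadjusted p of at most 0.01. In LA, 2.33% of transcripts passed them between control ages, 2.53% between BPA exposed ages, 0.256% for BPA in EG and 0.375% for BPA in LG. In RA the shares were 2.23%, 2.37%, 0.241% and 0.222%.

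In LV, the Myh6 signal was near the middle of the array in every EG fetus and close to its atrial rank in every LG control. The EG controls lay at 6.73, 6.44 and 6.48 and the EG BPA exposed fetuses at 5.69, 7.16 and 6.20, between the 39.7th and the 55.9th percentile of their arrays. The LG controls lay at 14.16, 14.43 and 14.19, with only 26 to 38 transcripts above Myh6. Every LG control was thus above every EG fetus, and no EG level was near the lower end of its array, where values reached −1.20. No background level was estimated here, so how much of the EG signal is Myh6 RNA is not known. The LG BPA exposed fetuses were spread over nearly the whole distance between the EG fetuses and the LG controls. Fetus 10 lay at 7.62, fetus 11 at 13.45 and fetus 12 at 5.56, the lowest LV level of all 12 fetuses. Fetus 11 was therefore close to the LG controls, while fetus 12 was at the level of the EG fetuses and fetus 10 was slightly above it. In a sample of whole tissue, fewer muscle cells that express Myh6 and less Myh6 RNA per cell cannot be told apart.

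**Figure D1:**
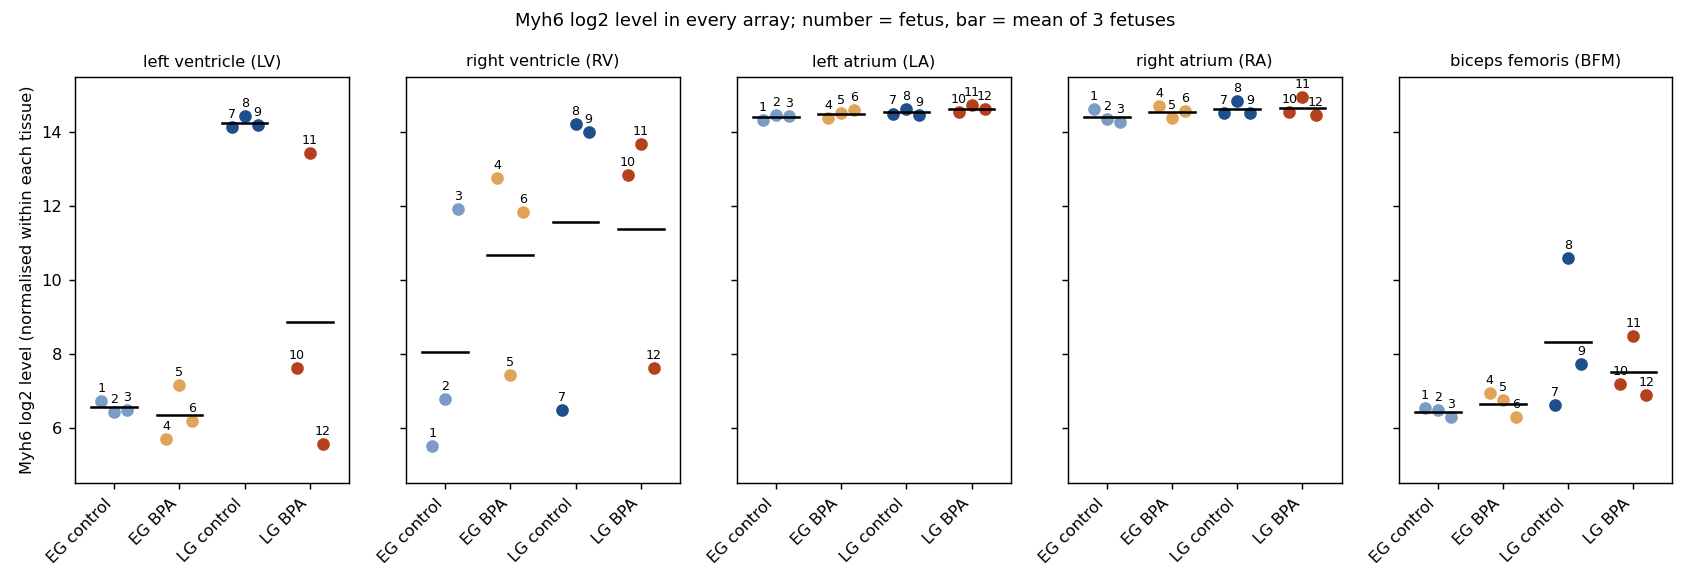
Log2 level of Myh6 (vertical axis, normalised within each tissue, so heights compare only within a panel) on all 60 arrays, by group, with the fetus number above each point and a bar at the mean of 3 fetuses. Both atria form a narrow band from 14.30 to 14.96, LV rises from 6.55 to 14.26 between EG and LG controls, and RV holds low and high fetuses in all 4 groups.

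The mean LV level of controls was 6.55 ± 0.16 (SD, n = 3) in EG and 14.26 ± 0.15 (SD, n = 3) in LG. The LG minus EG difference was 7.71 (SE 1.47, 95% interval 4.49 to 10.93), and the exact two-sided permutation test gave p = 0.1, the smallest that 3 against 3 fetuses allow, while limma gave p = 0.000255 before and 0.196 after adjustment. It passed the criteria of the study, as did 2.95% of the 17628 transcripts tested, and the control groups did not overlap, as was the case for 17.5% of them. No transcript reached an adjusted p of 0.05 in this comparison, although 1865 had an unadjusted p under 0.05. The SE of 1.47 is that of all 12 LV arrays, which share an estimate of the spread, and that spread was set mainly by the LG BPA exposed group (SD 4.09). When the 6 control arrays alone were fitted, the SE was 0.40 and the adjusted limma p was 0.00458. Without fetus 11 the adjusted p was 0.00157, and over the alternative settings and with each fetus left out it ranged from 0.00157 to 0.414, while the difference stayed between 7.62 and 7.80 and passed the criteria each time.

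In the BPA exposed fetuses, the LG minus EG difference in LV was 2.53 (SE 1.47, 95% interval −0.70 to 5.75, limma adjusted p = 0.502, exact two-sided permutation p = 0.5) and fell short of the criteria, which 3.59% of transcripts passed. Fetus 11 carried most of it: the difference was 0.24 without fetus 11 and 4.19 without fetus 12, and the latter passed the criteria (limma adjusted p = 0.378). The gestational difference in BPA exposed fetuses minus that in controls, which equals the LG effect of BPA minus its EG effect, was −5.18 (SE 2.08, 95% interval −9.74 to −0.62, limma adjusted p = 0.859). It did not pass, against 1.17% of transcripts that did. Without fetus 11 it was −7.47 and passed (limma adjusted p = 0.0876).

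BPA minus control in LV was −0.20 in EG (SE 1.47, 95% interval −3.43 to 3.02), where 0.925% of transcripts passed the criteria and Myh6 did not. In LG it was −5.38 (SE 1.47, 95% interval −8.61 to −2.16, exact two-sided permutation p = 0.1, unadjusted limma p = 0.00359, adjusted p = 0.983). The criteria were passed by this difference and by 0.84% of transcripts. The groups did not overlap, as was the case for 8.21%. The call changed with the fetuses and arrays fitted: it was lost without fetus 7, 8, 9, 10 or 12, with LFC of −5.44, −5.30, −5.42, −4.76 and −3.73, and when the model was restricted to the 6 LG arrays (limma adjusted p = 0.997). Without fetus 11 the LFC was −7.67 and the adjusted p was 0.00469.

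In RV, each of the 4 groups held fetuses with low and with high Myh6. In EG controls 1, 2 and 3 the RV level was 5.51, 6.77 and 11.91, and in EG BPA exposed fetuses 4, 5 and 6 it was 12.77, 7.43 and 11.85. In LG controls 7, 8 and 9 it was 6.47, 14.23 and 14.01, and in LG BPA exposed fetuses 10, 11 and 12 it was 12.84, 13.68 and 7.63. No level fell between 7.63 and 11.85, so that 5 fetuses were low and 7 were high. The low RV arrays had Myh6 between the 41.6th and the 67.3rd percentile, and the high ones between the 97.6th and the 99.9th. Among the high arrays, the 4 LG levels, 12.84 to 14.23, all lay above the 3 EG levels, 11.85 to 12.77, a split made here after seeing the values and not tested.

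With 3 fetuses in each, the mean and SD in RV were 8.06 ± 3.39 for EG controls, 10.68 ± 2.85 for EG BPA, 11.57 ± 4.42 for LG controls and 11.38 ± 3.28 for LG BPA exposed fetuses. The gestational difference in controls was 3.50 (SE 2.16, 95% interval −1.11 to 8.12, limma adjusted p = 0.351, exact two-sided permutation p = 0.3) and did not pass the criteria, against 6.68% of 12031 transcripts that did. It depended on single fetuses: it was 6.05 and passed without fetus 7 (limma adjusted p = 0.215), and it was 2.17 without fetus 8. In BPA exposed fetuses it was 0.70 (SE 2.16, 95% interval −3.92 to 5.32), against 6.49% of transcripts past the criteria, and it was 2.58 without fetus 12 and negative without fetus 5, 10 or 11. BPA minus control was 2.62 in EG (SE 2.16, 95% interval −2.0 to 7.24, against 0.615% of transcripts past the criteria, and from 1.34 without fetus 1 to 4.54 without fetus 3) and −0.19 in LG (SE 2.16, 95% interval −4.81 to 4.43, against 0.549%). Without fetus 12, whose RV array stood out in the check of fetus numbers, the LG value was 1.69, without fetus 7 it was −2.74, and it was also positive without fetus 8 (1.14) or 9 (1.03). The LG effect of BPA minus its EG effect in RV was −2.81 (SE 3.06, 95% interval −9.34 to 3.73), and −0.93 without fetus 12. The intervals in RV are wide enough to hold an increase or a decrease of several log2 units, so RV neither showed a difference nor limited it to a small one.

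Of the 12 fetuses, 7 were on the same side in both ventricles and 5 were not. Fetuses 8, 9 and 11 were high in LV and RV, and fetuses 1, 2, 5 and 12 were low in both. Fetuses 3, 4 and 6, all EG, and fetus 10 of the LG BPA group were high in RV only, at 11.85 to 12.84, with LV levels of 5.69 to 7.62. Fetus 7, an LG control, was the only one high in LV (14.16) and low in RV (6.47). Since the levels fell into separate clusters, no correlation over all fetuses was computed.

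**Figure D2:**
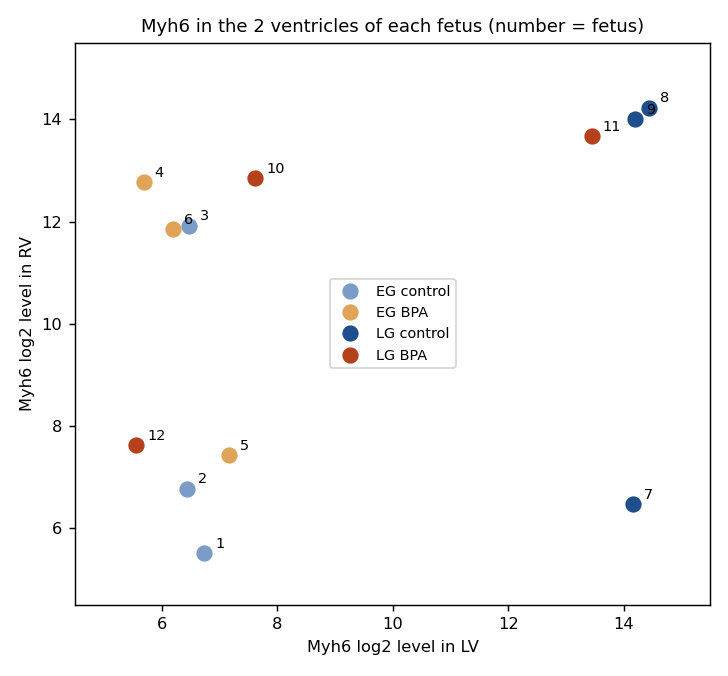
Log2 level of Myh6 in LV (horizontal axis) against RV (vertical axis), 1 point for each of 12 fetuses, coloured by group and marked with the fetus number. The lower right corner holds fetus 7 alone, at 14.16 in LV and 6.47 in RV.

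The difference between the ventricles was tested in a joint fit of the 24 ventricular arrays. The gestational difference in controls was larger in LV than in RV by 4.21 (SE 2.99, limma adjusted p = 0.792), and 2.15% of the 9221 transcripts past the filter in both ventricles passed the criteria. The LG effect of BPA was more negative in LV than in RV by −5.20 (SE 2.99, limma adjusted p = 1.00), against 0.586% of transcripts past the criteria. With the fetus as a block, the paired SE was 2.44 and the limma adjusted p-values were 0.640 and 1.00, so Myh6 passed in neither comparison with or without the pairing. Without fetus 7 the differences shrank to 1.71 and −2.70, and without fetus 12 they were 4.21 and −5.42. The larger LFC in LV is therefore not shown to differ from that in RV.

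The spread between fetuses was itself unusual beside that of other transcripts. In RV, Myh6 ranged over 8.72 log2 units between the lowest and the highest array, and none of the other transcripts had a wider range. The median range over all transcripts was 1.53. Its SD within groups, pooled over the 4 RV groups, was 3.53 and was also exceeded by no transcript. In LV its range was 8.87, exceeded by 137 transcripts, but that range also spans the difference between EG and LG controls. Its pooled SD within the LV groups was 2.08, exceeded by 667 transcripts, and the spread was uneven between groups. The SD of the LG BPA group, 4.09, was exceeded by 13 transcripts and that of the EG BPA group, 0.75, by 6273. That of the LG controls, 0.15, was exceeded by 23840 and that of the EG controls, 0.16, by 22142. In the atria the order was turned round: the range of Myh6 was exceeded by 25492 transcripts in LA and by 22963 in RA. The atrial levels lay near the top of the scale, where differences may be understated, so this low spread is that of the signal. In RA it was less marked within groups, where the SD of the LG BPA group, 0.26, was exceeded by 15050 transcripts.

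**Figure D3:**
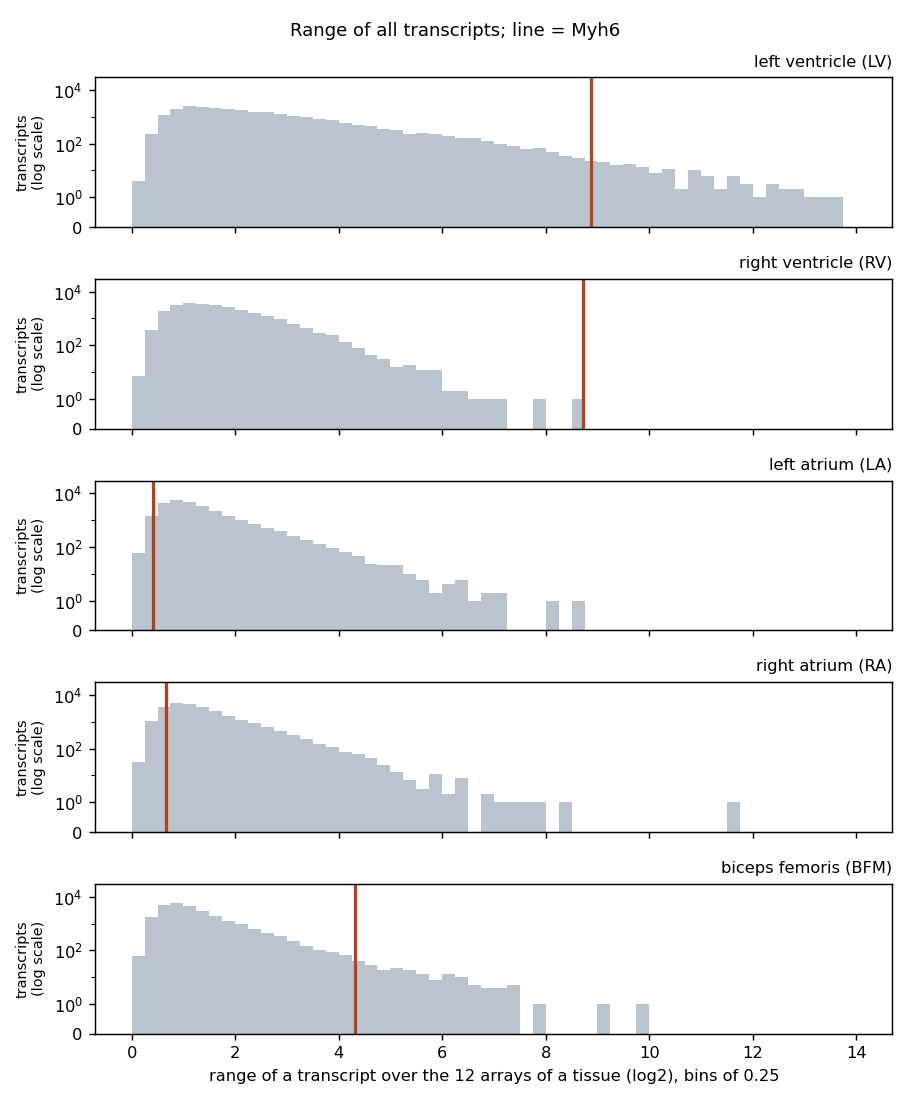
Number of transcripts (vertical axis, logarithmic above 1) by the range of their log2 values over the 12 arrays of a tissue (horizontal axis), with a line at Myh6. The line stands at the far right end in RV (8.72), far to the right in LV (8.87) and BFM (4.32), and near the left end in LA (0.41) and RA (0.66).

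In skeletal muscle, Myh6 lay below the middle of the array in every EG fetus and over a wider range in LG fetuses. The EG controls lay at 6.54, 6.47 and 6.30 and the EG BPA exposed fetuses at 6.95, 6.74 and 6.28, between the 31.7th and the 40.8th percentile. LG controls 7, 8 and 9 held 6.63, 10.60 and 7.74, and LG BPA exposed fetuses 10, 11 and 12 held 7.18, 8.49 and 6.88. Fetus 8 stood out at the 83.3rd percentile of its array, and the next highest, fetus 11, was at the 59.6th. The difference of LG from EG controls was 1.88 (SE 0.79, 95% interval 0.16 to 3.61, limma adjusted p = 0.0640, exact two-sided permutation p = 0.1). It did not pass the criteria, which 26.6% of 8609 transcripts passed in this comparison, and the control groups did not overlap, as was the case for 59.2%. Without fetus 8 the difference was 0.75, and without fetus 7 it was 2.73 and passed (limma adjusted p = 0.0107). In BPA exposed fetuses it was 0.86 (SE 0.79, 95% interval −0.87 to 2.59, against 23.1% past the criteria), and 0.37 without fetus 11. BPA minus control was 0.22 in EG (SE 0.79, 95% interval −1.51 to 1.95, against 0.267%) and −0.80 in LG (SE 0.79, 95% interval −2.53 to 0.93, against 0.825%), the latter 0.34 without fetus 8 and −1.65 without fetus 7.

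**Figure D4:**
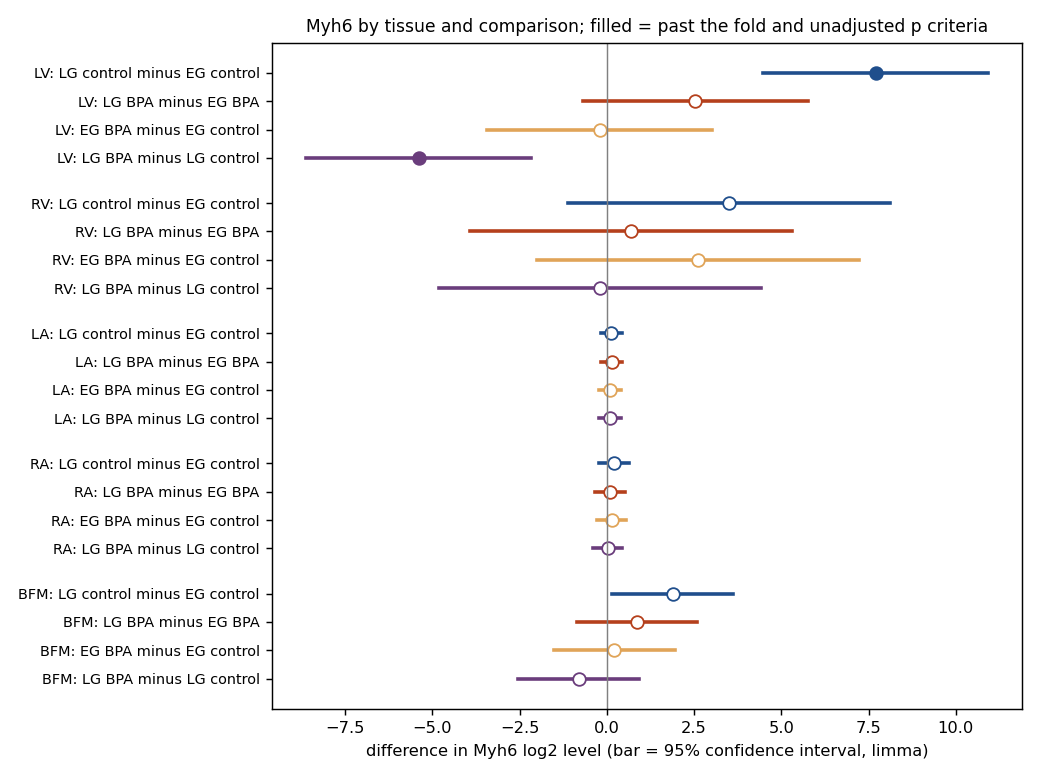
Difference in Myh6 log2 level (horizontal axis) for 4 comparisons in each of 5 tissues, with 95% confidence intervals from limma. Filled points passed the fold and unadjusted p criteria, which only LG against EG controls (7.71) and LG BPA against LG controls (−5.38) in LV did. Intervals are narrow in LA and RA and widest in RV.

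Among the LG fetuses, the order of Myh6 levels in BFM resembled that in RV. From the highest to the lowest it was 8, 11, 9, 10, 12 and 7 in BFM and 8, 9, 11, 10, 12 and 7 in RV, so fetuses 12 and 7 were the lowest in both tissues. In LV the order was 8, 9, 7, 11, 10 and 12. In LA it was 11, 8, 12, 10, 7 and 9 and in RA 11, 8, 10, 7, 9 and 12. Fetuses 7 and 12 were thus not together the lowest in either atrium, where the LG levels spanned only 0.28 (LA) and 0.48 (RA). Fetuses 7 and 12 belong to different exposure groups. They were also the lowest of the LG fetuses for Pdk4, the pyruvate dehydrogenase kinase that shifts muscle from glucose toward fatty acid use, in all 4 heart chambers. In RV, Pdk4 lay at 8.43 in fetus 7 and 8.57 in fetus 12, against 10.89 to 11.59 in the other LG fetuses. In LV it lay at 9.52 and 10.34, against 11.40 to 12.01, although Myh6 of fetus 7 was high there. In BFM, Pdk4 was likewise lowest in fetus 7 (11.14), but fetus 9 (12.51) lay below fetus 12 (12.67). With 6 LG fetuses these orders are descriptions.

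The study named further transcripts, of which 18 fixed by role were read beside Myh6. The study chose them on these same samples, so their counts are not independent evidence of a direction. In LV, 17 of the 18 passed the variation filter, and between EG and LG controls 3 rose and 2 fell by the criteria, against 1.46% and 1.49% of all transcripts tested. Over the list the median difference was −0.11, against −0.01 over all 26149 transcripts. Those that rose with Myh6 were Kcna5 (2.27), an atrial potassium channel, Pdk4 (3.47) and Htra3 (1.33), a serine protease. Those that fell were Adam12 (−1.88), a metalloprotease of tissue remodelling, and the microRNA transcript miR-224. In LV of all 3 LG controls, miR-224 was the lowest value on its array, at −0.93, −0.90 and 0.63, against 2.58, 2.39 and 2.72 in EG controls, at the 6.65th to the 10.2nd percentile. Its fall is therefore one to the floor of the scale and no fold is given. With 1 fetus left out, the difference stayed between 2.57 and 4.17 for Pdk4, whose call was lost without fetus 8, and between 1.03 and 1.49 for Htra3, whose call was lost without fetus 1, 2, 3 or 7 and when the 6 control arrays alone were fitted. Adam12, Kcna5 and miR-224 passed each time. In RV, 1 rose and 1 fell of 14 past the filter, Pdk4 (3.53, limma adjusted p = 0.0356) and Adam12 (−1.87, limma adjusted p = 0.0178), against 3.15% and 3.53% of all transcripts tested, and the list median was −0.16 against 0.03 over all transcripts.

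After LG exposure, 3 of the 17 were higher and 3 lower in LV of BPA exposed fetuses than in controls, against 0.437% and 0.403% of all transcripts tested. The list median was 0.43 against 0.02 over all transcripts. Higher were Adam12 (1.68) and the microRNA transcripts miR-205 and miR-224. Lower were Kcna5 (−1.49), the unconventional myosin Myosin-IIIB (−1.29) and the microRNA transcript miR-133c. For the microRNAs 1 of the groups lay at or near the lowest value of its arrays, so they are given as levels without a fold. miR-224 was the lowest value on all 3 LG control arrays and lay at 4.78, 4.45 and 1.84 in LG BPA exposed fetuses. miR-205 lay at the 1.55th to the 4.84th percentile in LG controls, with the lowest value of the array in 1 of 3, and at the 11.6th to the 18.98th in LG BPA exposed fetuses. miR-133c lay at the 8.49th to the 27.6th percentile in LG controls and at the 0.352nd to the 1.79th in LG BPA exposed fetuses, where 2 of 3 held the lowest value of the array. Of all these differences none had a limma adjusted p below 0.597. With each of the 12 fetuses left out in turn, Adam12, miR-205 and miR-224 passed every time, whereas Kcna5 lost its call in 10 of the 12 fits, Myosin-IIIB in 9 and miR-133c in 3. Kcna5 and Myosin-IIIB also lost it when the 6 LG arrays alone were fitted and with trend and robust settings of the prior variance. In RV, 2 of 14 were higher, Adam12 (1.21) and Htra3 (1.03), and none was lower, against 0.258% and 0.291% of all transcripts tested. The list median was 0.19 against 0.01. Adam12 lost its call in RV without fetus 8, 9 or 10, Htra3 in 10 of the 12 fits, and both when the 6 LG arrays alone were fitted. Htra3 also lost it with trend and robust settings.

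Thrb, the beta receptor for thyroid hormone, did not pass the criteria between LG and EG controls in LV, where it changed by 0.33 (SE 0.39). It lay at 7.29, 7.95 and 7.78 in LV of LG controls and at 8.51, 8.90 and 8.14 in LV of LG BPA exposed fetuses. All 3 exposed fetuses were higher than the controls, by 0.85 on average (SE 0.39, exact two-sided permutation p = 0.1, limma adjusted p = 0.983), a difference short of the criteria. The groups did not overlap for 8.21% of the transcripts tested in that comparison. In RV the LG difference was −0.86 (SE 0.66, limma adjusted p = 1.00), also short of the criteria, and 0.16 without fetus 12. Between EG and LG controls Thrb rose in RA by 1.31 (SE 0.35, limma adjusted p = 0.0786), where 2.23% of all transcripts passed the criteria. It was 0.68 higher in LA (SE 0.30) and 0.59 higher in RV (SE 0.66), both short of the criteria. In BFM it rose by 2.94 (SE 0.33, limma adjusted p = 8.34e-05), where 26.6% of 8609 transcripts passed the criteria. In the RV array of fetus 12 it was the lowest of all RV arrays, at 5.18, against 6.59 to 8.66 in the other fetuses.

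Atrial tissue holds Myh6 at a high level, and the transcripts of atrial muscle that could be read were therefore set beside the ventricular levels. Bmp10, a growth factor of the right atrium, lay at the 95.9th to the 99.1st percentile of the RA arrays and at or below the 69.0th in the other tissues. In LV it was 0.46, 1.69 and 1.52 in the LG controls, in which Myh6 was high, at the 2.53rd to the 4.80th percentile, against 2.42, 5.03 and 3.44 in EG controls. This difference was short of the criteria, but passed them without fetus 1 or 5. In LG BPA exposed fetuses 10, 11 and 12, LV levels of Bmp10 were 3.33, 2.97 and 1.499, so fetus 12 had the lowest Myh6 with Bmp10 as low as in LG controls. In RV, Bmp10 was 7.96 in fetus 4 and 6.02 in fetus 5, above all other RV arrays, which held 3.97 to 4.96. Myh6 in RV was high in fetus 4 (12.77) but not in fetus 5 (7.43), and it was as high in fetus 3 (11.91), where Bmp10 was 4.18, as in fetus 6 (11.85), where it was 4.96. The EG difference of Bmp10 in RV was 1.98 (SE 0.57, exact two-sided permutation p = 0.1, limma adjusted p = 1.00) and passed the criteria, as did 0.615% of transcripts.

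Kcna5, which carries the ultrarapid potassium current of atrial muscle, lay between the 62.0th and the 78.9th percentile in the atria and between the 18.995th and the 58.8th in the ventricles. In LV it moved with Myh6 across the groups, at 4.91, 4.12 and 4.11 in EG controls, 7.46, 6.20 and 6.30 in LG controls and 4.45, 5.42 and 5.62 in LG BPA exposed fetuses. Within the last group it did not follow Myh6, since fetus 12 had the highest Kcna5 and the lowest Myh6. In RV the highest Kcna5, 6.51, was likewise in fetus 12, where Myh6 was low. The part of Kcna5 expressing tissue in the Myh6 levels was not tested.

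A wider list was taken from the EG controls alone: the 50 transcripts other than Myh6 whose rank was furthest higher in the atria than in the ventricles, out of 2404 whose atrial and ventricular ranks did not overlap. Slide, amplification and tissue cannot be told apart in that choice, and the low values of the list in EG control ventricles follow from it. The median percentile of the list was 78.0 to 85.8 on atrial arrays and 21.2 to 40.0 on ventricular arrays. In LV its median log2 level was 4.47, 4.34 and 4.51 in EG controls, which helped to choose the list, and 4.72, 4.78 and 4.68 in EG BPA exposed fetuses. It was 5.44, 4.85 and 5.00 in LG controls, all above the EG values, and 4.91, 4.48 and 5.33 in LG BPA exposed fetuses. Fetus 11, with high Myh6, thus had the lowest and fetus 12, with the lowest Myh6, the highest value of the LG BPA group. The LG BPA minus control difference of the list was −0.19 in LV and 0.03 in RV. With 1 LG fetus left out it ranged from −0.40 (without fetus 12) to 0.028 (without fetus 11) in LV, where it was −0.015 without fetus 7, and from −0.049 to 0.098 in RV. In RV the list median was 5.01, 5.46 and 5.14 in the EG fetuses 3, 4 and 6, in which Myh6 was high, and 4.93, 4.63 and 5.12 in the EG fetuses 1, 2 and 5, in which it was low. The arrays of fetuses 1, 2 and 3 helped to choose the list, so this contrast is partly fixed by the choice. In RV of the LG fetuses 8, 9, 10 and 11, with high Myh6, the list median was 5.13, 4.93, 5.09 and 4.98. In fetuses 7 and 12, with low Myh6, it was higher, at 5.19 and 5.28. With the first 20 transcripts of the list the LG BPA minus control difference in LV was −0.74, or −0.28 without fetus 7, and fetus 10 (3.95) rather than fetus 11 (4.36) had the lowest value of the exposed group. With the first 100 it was −0.091, and 0.035 without fetus 7.

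**Figure D5:**
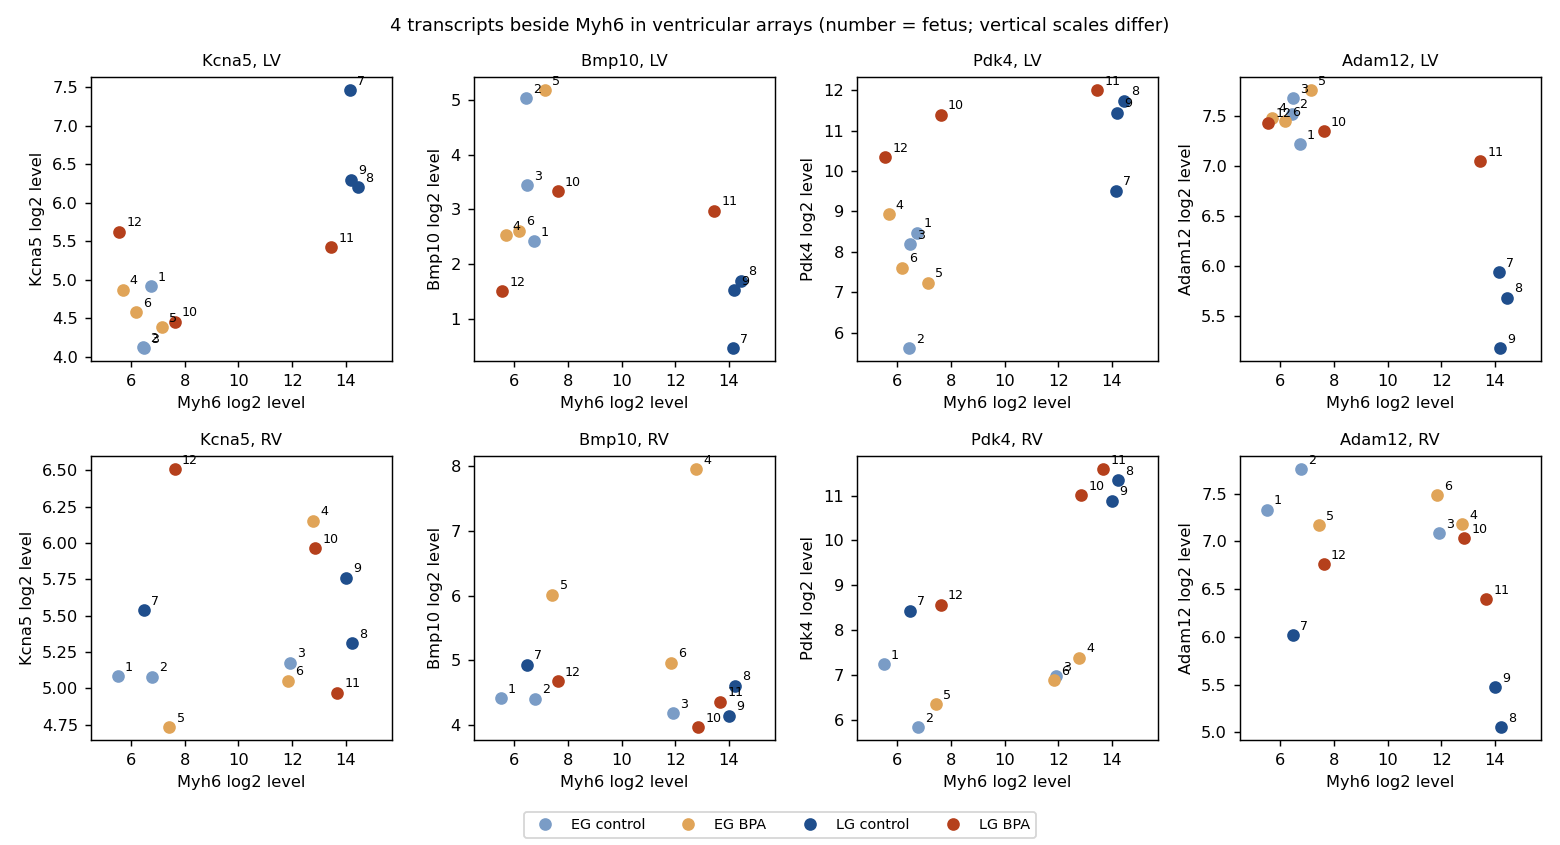
Log2 levels of Kcna5, Bmp10, Pdk4 and Adam12 (vertical axes, which differ between panels) against Myh6 (horizontal axis) on the 12 LV arrays (upper row) and the 12 RV arrays (lower row), numbered by fetus. In LV the LG controls 7, 8 and 9 combine high Myh6 with low Adam12 (5.18 to 5.94), and Bmp10 is highest in RV of fetus 4 (7.96).

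The transcripts most like Myh6 were sought over the 24 ventricular arrays, each transcript centred within LV and within RV, among the other 9220 transcripts past the filter in both ventricles. The arrays share the fetuses and 2 slides, and the correlations are descriptions. Differences between the groups of a tissue were left in, so the correlations hold them too. The closest were ENSMMUT00000006991 (Pearson r = 0.78) and ENSMMUT00000020879 (r = 0.78), and the most opposed were ENSMMUT00000018393 (r = −0.73) and ENSMMUT00000024953 (r = −0.73), none of which has a name in the tables used. In all, 16 transcripts had r of at least 0.7, 6 had r of at most −0.7, and none reached 0.8 in size, although with rank correlation 1 did, ENSMMUT00000006991 (0.80). Of the 20 most opposed transcripts only Adam12, the 12th, was named by the study, with r = −0.68, and no transcript among the 20 closest was. Pdk4 was the 47th closest (r = 0.65).

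Of the 13 named transcripts past the filter in both ventricles, Adam12 had the most negative correlation with Myh6. The study had singled out both for LG differences of opposite direction in LV on these arrays, so a negative correlation is partly built in. In LV, Adam12 lay at 7.22, 7.52 and 7.68 in EG controls, at 5.94, 5.68 and 5.18 in LG controls and at 7.35, 7.05 and 7.43 in LG BPA exposed fetuses. The lowest of the 3 exposed fetuses was fetus 11, the fetus with high Myh6. In RV it lay at 6.02, 5.06 and 5.47 in LG controls, and fetus 7, the control with low Myh6, had the highest of these 3 values. Among LG BPA exposed fetuses, RV levels of Adam12 were 7.03, 6.40 and 6.76, again lowest in fetus 11. The EG fetuses 3, 4 and 6 had high Myh6 in RV with Adam12 at 7.08, 7.18 and 7.48, and EG fetuses 1, 2 and 5 had low Myh6 with Adam12 at 7.33, 7.76 and 7.17, so that these values overlapped.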

How the data were processed

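Total RNA from each tissue was reverse transcribed, labelled with Cy5 and hybridised to a custom NimbleGen array designed on the Mmul_1 build. Ventricular cDNA was labelled as it was, atrial cDNA was first amplified by PCR, and each chamber had 1 slide. The preparation of BFM was not given in the sources used here. The authors background corrected, quantile normalised and summarised the probes (RMA) within each tissue and deposited 1 log2 value per transcript and array. Probe intensities were not used here. Precision is limited by the number of arrays.

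Groups and fetus numbers came from the sample labels. Following the methods of the study, a transcript was kept in a tissue where its interquartile range over the 12 arrays was at least 0.5, and limma 3.58.1 (R 4.3.3) was fitted with 1 mean per group. The Benjamini-Hochberg adjustment was added here. Exact two-sided permutation tests used all splits of 3 against 3 fetuses. The code was tested on simulated data. Samples with the same number were taken to come from the same animal, and the fetus was used as a block in an alternative fit. Deviations from the group means in LV and RV had a median correlation of 0.126 for the same fetus and −0.0089 for different fetuses. The correlation was over 0.1 in 7 of 12 fetuses.

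Named were Myh6, 18 transcripts of the study, the 2 highest and 2 lowest of the likeness ranking, and any of its 20 extremes named by the study. The transcript, lists and tests were chosen with earlier results of these data known. Alternatives were no filter, further quantile normalisation, median centring, only the groups compared, trend and robust settings, removal of the 25% of transcripts with the lowest mean, and leaving out each fetus. For the 18 transcripts they were added after seeing the data.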

Additional observations from a re-analysis of the deposited data

How the results depend on the processing

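Of 147 alternative fits of the 27 Myh6 comparisons, 144 kept the direction and the side of the criteria. The exceptions were the LG effect of BPA in LV, at −5.38 but short of the criteria when only the LG groups were fitted, and the LG minus EG effect in LA, 0.0021 as reported, which turned to −0.041 with a further quantile normalisation and to −0.021 with median centring. The replicate block changed no call: paired by fetus, the LV minus RV differences stayed at 4.21 and −5.20. With 1 fetus left out, 296 of 324 fits kept direction and call, 19 turned in direction, 5 lost the call and 4 gained it. Ranges over the fetuses left out, for the comparisons with a change, follow. In LV they were −0.61 to 0.13 for BPA in EG, −7.67 to −3.73 for BPA in LG, 0.24 to 4.19 for the gestational difference under BPA and −7.47 to −3.52 for the LG minus EG effect. In RV they were 2.17 to 6.05 for the gestational difference in controls, −0.93 to 2.58 for that under BPA and −2.74 to 1.69 for BPA in LG. In LA the LG minus EG effect ranged from −0.055 to 0.052. In RA the gestational difference under BPA ranged from −0.054 to 0.19 and BPA in LG from −0.12 to 0.13. In BFM the gestational difference in controls ranged from 0.75 to 2.73, BPA in LG from −1.65 to 0.34 and the LG minus EG effect from −1.87 to 0.12. With rank correlation, 11 transcripts in place of 16 had a coefficient of at least 0.7 with Myh6, 1 in place of 6 of at most −0.7, and 1 in place of 0 of at least 0.8 in size. The median of 20 rather than 50 atrial-high transcripts differed by −0.74 between LG BPA and LG controls in LV, and with 1 LG fetus left out, a setting added after seeing the data, that of the 50 ranged from −0.40 to 0.028 in LV and −0.049 to 0.098 in RV. In LV the LG BPA calls of Kcna5 and Myosin-IIIB were also lost with trend and robust settings. Of the 18 transcripts of the study, those past the criteria for BPA in LG fell from 6 to 2 in LV without the lowest 25% of transcripts, which removed the other 4 from the test, and in RV from 2 to 0 with only the LG groups and to 1 with trend and robust settings. With 1 fetus left out, the count was 3 to 6 in LV and 0 to 1 in RV for BPA in LG, and 4 to 6 and 2 to 3 between control ages. These settings for the 18 were chosen after seeing the data. The cause of the other changes was not tested. With 3 fetuses a group, and with the highest levels near the top of the scale, small differences in LA and RA and differences of several log2 units in RV could not be resolved.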
